A study of Drosophila melanogaster with 20 samples.

Results

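The subject is the change in gene expression between the larval and the pupal wing of Drosophila melanogaster when an activated form of the receptor Thickveins (Tkv) is expressed. It was read from 10 of the 20 arrays of the series, chosen by their titles: 5 of larval Tkv wings and 5 of pupal Tkv wings. Larval wings came from wandering larvae of instar 3, and pupal wings were taken 24 h after pupa formation. Tkv wings carried a UAS transgene for activated Tkv, switched on through Gal4, whose driver line is not named in the sources used here. The 5 larval and 5 pupal control arrays, from the matched non-UAS strain, serve here as the measure of normal development. Animals of all groups grew at 18 °C and were moved to 28 °C for 10 h before dissection, so both genotypes had the same heat shift. Each array held total RNA from a pool of 10 wings and gave an intensity for 15473 transcripts. In whole tissue, fewer cells of a type and less RNA per cell cannot be told apart.

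Tkv is a type I receptor for Decapentaplegic, a ligand of the BMP family. The active receptor phosphorylates the transcription factor Mad, which enters the nucleus with Medea and turns target genes on or off. In the larval wing disc this pathway guides growth and patterning along the front to back axis, and in the pupal wing it takes part in forming the veins. From the end of larval life the disc everts into a flat wing, cells stop dividing, and veins, hairs and cuticle are built. Not all of these steps are complete by the pupal stage sampled here.

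Files identify transcripts by FlyBase transcript ID. Of 15473 IDs, 17 led to a single gene symbol through RefSeq's genes on the Release 6 assembly, so most transcripts are described as groups. The tkv transcript and the marker genes of wing cells, muscle, blood cells and nerves were not among the 17, and neither the transgene nor the tissue label was checked against them. Each array correlated with the mean of the other arrays of its group at 0.986 to 0.996 (Pearson, across transcripts). The lowest value, 0.986, belonged to pupal Tkv replicate 2, which also had the lowest deposited median (9.19 on the log2 scale, against 9.30 to 9.59 elsewhere). Nothing in the labels says how animals of different samples were related, so the p-values speak of the spread between samples, which may be technical.

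Tkv wings changed on a large scale between the stages. At the pupal stage 2923 transcripts were higher and 3165 lower than in larval Tkv wings, 39.3% of those tested (limma, adjusted p under 0.05). The rises were 18.9% and the falls 20.5% of all transcripts. Among the larger changes rises outnumbered falls. At least 2-fold changes numbered 1275 rises and 1238 falls, at least 4-fold changes 573 and 378, and at least 16-fold changes 124 and 63. At least 64-fold, 30 transcripts rose and 8 fell. Control wings had 3055 rises (19.7%) and 3224 falls (20.8%), 40.6% in all, with 131 rises and 58 falls of at least 16-fold. The median change over all transcripts was -0.04 on the log2 scale in both genotypes. Quantile normalization gave all arrays the same distribution of values, which keeps this median small and favours a balance of rises and falls. A shift of most transcripts in the same direction, between stages or genotypes, could therefore not show. Without that step the medians were -0.05 in Tkv wings and -0.03 in controls. The deposited intensities had themselves been processed, with settings unstated, so these medians do not decide the question either.

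**Figure D1:**
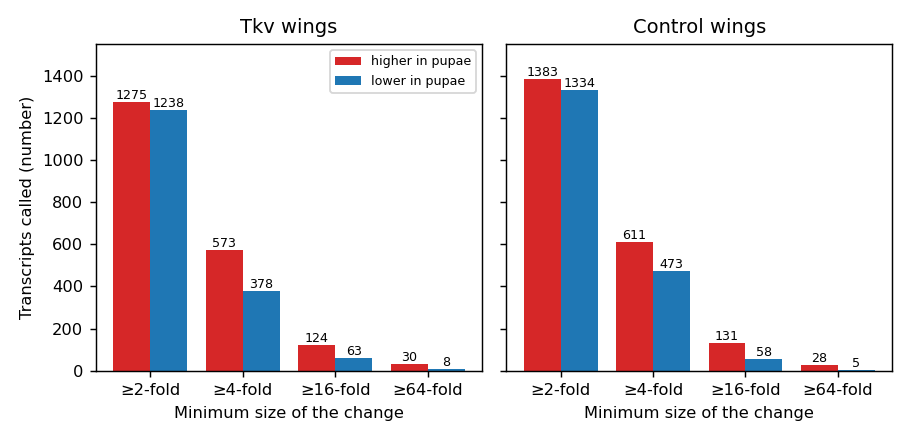
Number of transcripts (vertical axis) that passed the limma test with at least the fold change on the horizontal axis, in Tkv wings (left) and control wings (right). Red bars are rises and blue bars falls at the pupal stage. In both genotypes rises and falls are near equal at 2-fold (1275 and 1238 in Tkv wings), while rises outnumber falls at 16-fold (124 and 63).

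The changes were shared by the arrays. Each slide held 1 array of every group, so a stage change can be read within each of 5 slides. Of the transcripts called in Tkv wings, 90.2% had the fitted sign on all 5 slides, against 42.8% of all transcripts. The calls rest on these same arrays, so a higher share among called transcripts follows in part from the test. For 13.7% of all transcripts every pupal Tkv array lay above every larval one, and for 14.1% every pupal array lay below. These came to 2090 of the 2923 rises and 2138 of the 3165 falls. With the slide as a fixed block the limma test called 6461 transcripts in place of 6088.

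The distribution of normalized values had 2 modes, and its density was lowest between them at 8.67 (log2), taken as the boundary of dim and bright. By that boundary 294 transcripts switched on in Tkv wings, being dim on all 5 larval and bright on all 5 pupal arrays, and 198 switched off. All of these also passed the limma test. The median change was 3.29 for those that switched on and -2.74 for those that switched off (log2). Most called transcripts did not cross the boundary. Of the 7461 transcripts bright on all 10 Tkv arrays, 1674 rose and 1826 fell (46.9%), 101 and 77 of them by at least 4-fold. Of the 6253 dim on all 10 arrays, 612 rose and 664 fell (20.4%).

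The largest rises took transcripts from the dim end of the arrays to the bright end. FBtr0071744 lay at 5.24, 5.71, 5.35, 6.14 and 4.63 in larval Tkv wings and at 15.68, 15.49, 15.24, 15.03 and 15.09 in pupal Tkv wings (log2 intensity, replicates 1 to 5). The groups lay far apart, and the fitted change was 9.89 ± 0.38 (log2, SE, limma adjusted p = 8.83e-14). Larval values were in the dim mode and pupal ones near the highest deposited intensity (62182). The files used here carry no detection call, so this size and its rank, like those of other changes from or to dim values, describe fitted intensities and not amounts of RNA. In control wings the same transcript changed by 9.13 ± 0.38. FBtr0081252 rose from 5.78 ± 1.13 to 14.93 ± 0.14 (mean ± SD, n = 5), by 9.16 ± 0.56 (SE, limma adjusted p = 6.57e-11). One larval Tkv array, replicate 4 at 7.66, stood above the other 4, which lay between 4.60 and 5.62. The control change of this transcript was 9.06 ± 0.56. A difference between genotypes was not called for either (limma adjusted p = 0.842 for FBtr0071744 and 0.987 for FBtr0081252).

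The largest falls ran the other way. FBtr0086982 lay at 13.00, 13.48, 12.94, 12.99 and 13.37 in larval Tkv wings and at 5.41, 4.72, 5.74, 5.70 and 5.84 in pupal Tkv wings. Every pupal array was dim, and the change was -7.67 ± 0.35 (log2, SE, limma adjusted p = 7.75e-13), beside -7.34 ± 0.35 in controls. FBtr0086981 went from 12.93 ± 0.31 to 5.53 ± 0.28 (mean ± SD, n = 5), a change of -7.40 ± 0.58 (limma adjusted p = 2.42e-09). All 5 pupal Tkv arrays lay between 5.27 and 5.99. In pupal controls the same transcript was uneven, at 8.63 and 8.42 in replicates 1 and 4 and 4.92 to 5.34 in the other three. Its control change was -6.31 ± 0.58.

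Transcripts bright on all 20 arrays gave changes that the dim end of the scale does not limit. FBtr0075307 rose most, from 9.84 ± 0.56 to 15.69 ± 0.14 (mean ± SD, n = 5), by 5.85 ± 0.20 (log2, SE, limma adjusted p = 2.48e-14). FBtr0081251 rose by 4.64 ± 0.28 (limma adjusted p = 4.25e-11), from a larval range of 9.98 to 11.18 to a pupal range of 15.07 to 15.48. Pupal values of both transcripts lay near the highest deposited intensity (62182), so the bright end may limit the sizes of these rises. FBtr0078346 fell by 4.26 ± 0.27 (limma adjusted p = 9.02e-11), from 14.39 ± 0.16 to 10.14 ± 0.53. These 3 changed in control wings by 5.34, 4.61 and -4.30, each with the same SE as in Tkv wings. FBtr0079854 differed from them in its spread. It was even in larval Tkv wings, from 14.90 to 15.41, and ran over 9.38, 11.71, 13.01, 14.76 and 9.54 in pupal replicates 1 to 5. The pupal arrays lay below all larval ones, and the change was -3.55 ± 0.76 (limma adjusted p = 7.90e-04). In controls it was -1.67 ± 0.76 (limma adjusted p = 0.0884), and the difference of -1.88 had a 95% interval of -4.12 to 0.37.

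**Figure D2:**
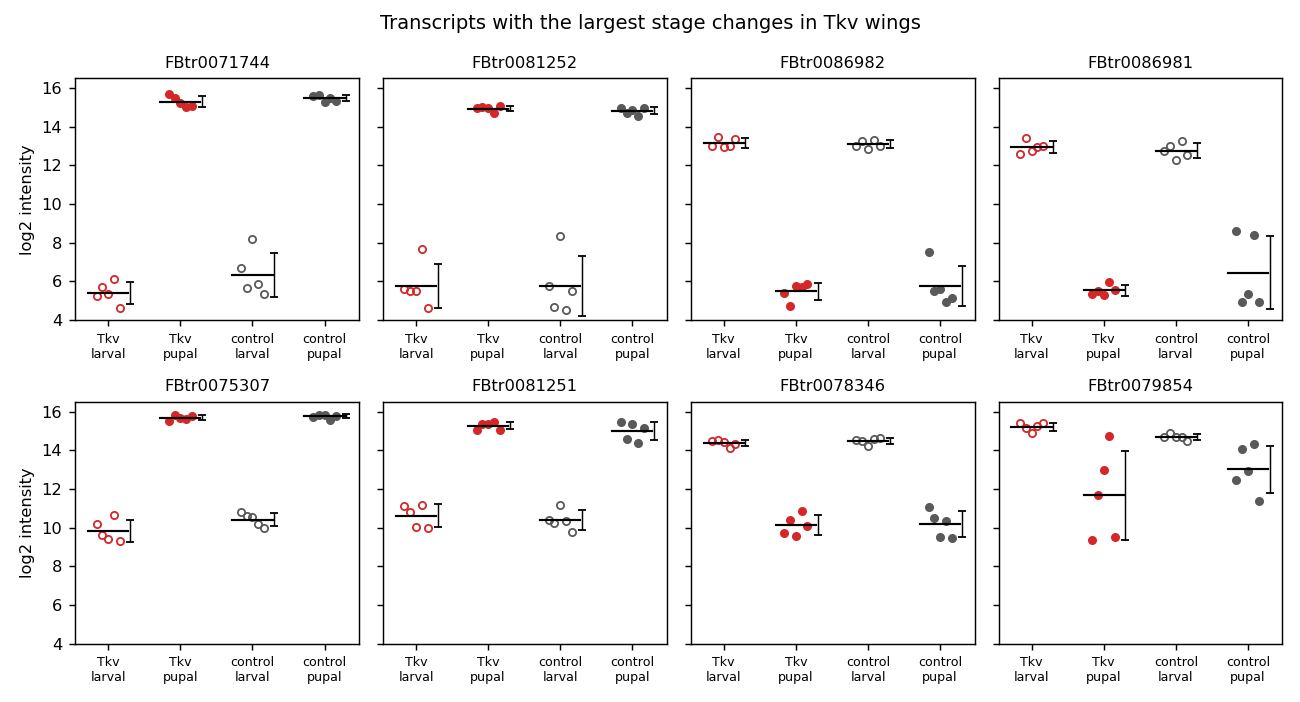
Log2 intensity on each array for the 8 transcripts with the largest stage changes in Tkv wings, chosen among all transcripts (top row) and among those bright on all 20 arrays (bottom row). Points are arrays in order of replicate number, lines are means and bars are 1 SD (n = 5). FBtr0079854 spreads from 9.38 to 14.76 in pupal Tkv wings, while FBtr0071744, for example, lies between 15.03 and 15.68.

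Among the 17 transcripts with a gene symbol, 4 rose and 7 fell in Tkv wings, 64.7% against 39.3% of all transcripts. Their median change was -0.26, against -0.04 for all transcripts (log2). The symbols are those the table held, not a choice by function, and 14 of the 17 were bright on all 20 arrays. All 17 had the same sign of change in Tkv and control wings, though some signs rest on changes near 0. In controls His4r was at -0.01 ± 0.24, Uba1 at 0.03 ± 0.09 and CG31178 at 0.06 ± 0.22 (SE). The share with the same sign was not counted over all transcripts. Of all those called in both genotypes, 4929 of 4943 changed in the same direction. The difference between the genotypes was called for 0 of 17 in limma, beside 0.679% called among all transcripts. At an unadjusted p under 0.05 in limma there was 1 of 17, beside 1206 of all 15473 transcripts. For 15 of them (88.2%, against 70.0% of all transcripts) the 95% interval of that difference lay within 2-fold. Among transcripts bright on all 20 arrays, the nearer background for most of the 17, that share was 93.4%, and 46.6% were called in Tkv wings.

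A transporter gene and a matrix gene fell furthest among the 17. NaPi-III, which encodes a sodium-dependent phosphate transporter, lay at 12.47, 11.80, 12.07, 11.89 and 12.01 in larval Tkv wings and at 8.66, 7.50, 8.37, 8.48 and 9.24 in pupal ones. The groups did not overlap, and the change was -3.60 ± 0.23 (log2, SE, limma adjusted p = 1.21e-10), beside -4.19 ± 0.23 in controls. The difference, 0.59, had an interval of -0.09 to 1.27. LanA, the laminin alpha chain of the basement membrane, lay at 13.52, 12.93, 13.04, 12.83 and 13.28 in larval and at 11.46, 10.55, 11.26, 12.19 and 11.20 in pupal Tkv wings. It fell by 1.79 ± 0.25 (limma adjusted p = 6.02e-06) without overlap, 3.46-fold, and by 3.13-fold in controls. Its difference between genotypes was -0.15, with an interval of -0.87 to 0.58. Fatp1, a fatty acid transport protein, was not called in Tkv wings (0.26 ± 0.12, limma adjusted p = 0.1), though it rose in controls by 0.61 ± 0.12. Without pupal Tkv replicate 1, whose value of 10.43 lay below the 10.96 to 11.06 of the other 4, its Tkv change was 0.38 (limma adjusted p = 0.00842).

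Genes of the membrane skeleton, signalling and nutrient sensing had smaller changes. alpha-Spec, the alpha subunit of spectrin under the cell membrane, rose from a larval range of 12.12 to 12.44 to a pupal range of 12.60 to 13.09. That rise of 0.62 ± 0.12 (log2, SE, limma adjusted p = 3.65e-04) was beside 0.52 ± 0.12 in controls. The kinase gene Dyrk3 rose by 0.57 ± 0.15 (limma adjusted p = 0.0057) and CG16974 by 0.58 ± 0.15 (limma adjusted p = 0.00405). For both, larval and pupal Tkv arrays overlapped, with larval replicate 1 the highest larval array. Their calls were lost without all arrays of replicate 3 (Dyrk3, limma adjusted p = 0.0675) or 4 (CG16974, limma adjusted p = 0.059). mio and Wdr24 both encode subunits of GATOR2, a complex of the amino acid sensing branch upstream of TOR. mio fell by 0.51 ± 0.13 (limma adjusted p = 0.00314), from 9.54 to 10.02 in larvae to 8.96 to 9.41 in pupae. Wdr24 was at -0.36 ± 0.15 and did not pass (limma adjusted p = 0.0657), but passed without larval Tkv replicate 3 or 4 (limma adjusted p = 0.0375 and 0.0292) or all arrays of replicate 4 (0.0321). Wdr24 also passed with slide as a random block (0.0488), without the dimmest 25% of transcripts (0.0485) and with a trended, robust eBayes (0.0439).

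rdx encodes a substrate adaptor of a ubiquitin ligase that acts on the Hedgehog pathway factor Ci, and Uba1 the ubiquitin-activating enzyme. Their Tkv changes of 0.22 ± 0.10 and 0.14 ± 0.09 did not pass (limma adjusted p = 0.075 and 0.241). rdx passed with slide as a fixed block (limma adjusted p = 0.0464), without the dimmest 25% of transcripts (0.0489) and with a trended, robust eBayes (0.0309). The gene fend fell by 0.99 ± 0.18 (limma adjusted p = 1.38e-04), with overlapping arrays. sle, which encodes a nucleolar protein, fell from a larval range of 12.28 to 12.72 to a pupal range of 11.66 to 12.14, by 0.57 ± 0.13 (limma adjusted p = 0.0019). Its control fall was 1.05 ± 0.13, and sle was the symbol with an unadjusted p under 0.05 for the difference: 0.48 ± 0.19, limma adjusted p = 0.466. CG31178 was dim on all arrays, with 0.19 ± 0.22.

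Chromatin genes were the only list of which more than 1 member had a symbol, with 4 of 10: 2 fell, 1 rose and 1 did not pass, where 39.3% of all transcripts were called (18.9% higher, 20.5% lower). SuUR, which holds back replication of heterochromatin in polytene cells, fell by 0.51 ± 0.16 (log2, SE, limma adjusted p = 0.016). The histone deacetylase HDAC3 fell by 0.26 ± 0.09 (limma adjusted p = 0.0264), from a larval range of 13.66 to 13.86 to a pupal range of 13.40 to 13.58. The chromodomain helicase gene kis rose by 0.45 ± 0.17 (limma adjusted p = 0.041), with 13.61, 12.77, 12.96, 12.80 and 13.08 in larvae and 13.65, 13.24, 13.37, 13.72 and 13.46 in pupae. Larval replicate 1 of kis lay inside the pupal range. The replacement histone gene His4r was at -0.52 ± 0.24 (limma adjusted p = 0.0928), and -0.65 without pupal Tkv replicate 2 (limma adjusted p = 0.0361). The kis call was lost without any of larval replicates 2 to 5 or of pupal replicates 1, 4 and 5 of the Tkv wings (limma adjusted p = 0.0578 to 0.108), and without all arrays of any of replicates 2 to 5 (0.0804 to 0.233). It was also lost with median centring (0.057), with no further normalization (0.0512) and with Tkv arrays alone (0.0676). The HDAC3 call was lost without larval replicate 1 or 4 or pupal replicate 2 or 5 (0.0534 to 0.062), or all arrays of replicate 1, 2, 4 or 5 (0.0562 to 0.102). It was also lost with median centring (0.0572), with Tkv arrays alone (0.0545) and with array position and slide in the model (0.0734). The SuUR call was lost when all arrays of replicate 2 or 5 were left out (0.0591 and 0.0766) and with Tkv arrays alone (0.0505).

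**Figure D3:**
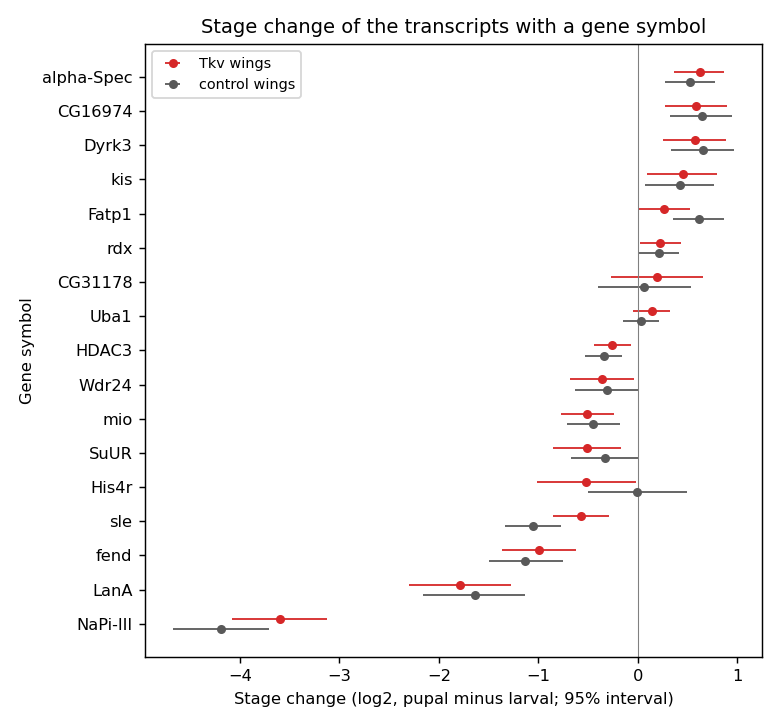
Stage change (log2, pupal minus larval) with its 95% interval from limma for the 17 transcripts with a gene symbol, in Tkv wings (red) and control wings (grey). NaPi-III and LanA fall furthest in both genotypes, and the points of each gene lie on the same side of 0, some of them close to it.

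The second question was where Tkv wings departed from normal development. A departure here is the Tkv stage change minus the control stage change, tested as an interaction in limma. The 2 stage changes share no arrays, though they share slides. Departures were called for 105 transcripts, 0.679% of those tested, with 67 above 0 (0.433%) and 38 below (0.246%). At least 2-fold departures numbered 57 and 32, and at least 4-fold ones 13 and 8. At an unadjusted p under 0.05 there were 1206. The sign held on all 5 slides for 101 of the 105, against 9.25% of all transcripts, which follows in part from calling on the same arrays.

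A missed test does not show that a transcript changed alike in both genotypes, so the interval of each departure was also read. For 10836 transcripts (70.0%) the 95% interval lay within 2-fold either way, 3 of which also had a called departure. For 4535 (29.3%) there was neither a called departure nor an interval that narrow. Among the transcripts called in Tkv wings, 4298 of 6088 (70.6%) had such a narrow interval. Among those changed at least 4-fold in Tkv wings the share was 37.0% (352 of 951), and 41 of the 951 (4.31%) had a called departure. The precision was lower for these, with a median SE of the departure of 0.33, against 0.26 for all transcripts. Of the transcripts bright on all 20 arrays, 6844 of 7328 (93.4%) had the narrow interval and 35 a called departure.

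Most transcripts called in a single genotype had no called departure. Of the 1145 transcripts called in Tkv wings and not in controls, 16 (1.40%) had a called departure and 667 (58.3%) an interval within 2-fold, where all transcripts gave 0.679% and 70.0%. Of the 1336 called in controls and not in Tkv wings, 17 (1.27%) and 827 (61.9%) did. Most switches were shared by the genotypes. Of the 294 transcripts that switched on in Tkv wings, 235 (79.9%) also switched on in controls, which is 76.1% of the control switches. Of the 198 that switched off, 140 (70.7%) also did so in controls, 63.9% of the control switches. Transcripts that switched in a single genotype were chosen by a genotype difference on the same arrays. A share of called departures above the 0.679% of all transcripts follows in part from that choice. For the 59 that switched on in Tkv wings alone the median change was 2.23 in Tkv wings and 1.59 in controls, and 11 of them had a called departure. For the 58 that switched off in Tkv wings alone the medians were -2.01 and -1.50, and 2 had a called departure. Of those that switched in controls alone, 5 of 74 that switched on and 5 of 79 that switched off had a called departure.

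Among strongly changed transcripts the median ratio lay on the side of a larger control change under both ways of choosing them. Where they were chosen in Tkv wings it did so by little, and not in every refit. Among the 1084 transcripts called and changed at least 4-fold in controls, the median ratio of the Tkv to the control change was 0.909 (quartiles 0.789 and 1.031), and 70.0% lay below 1. Each slide's Tkv change was also divided by the control change fitted over all 5 slides. The medians of these ratios were 0.900, 0.971, 0.933, 0.904 and 0.883. They share the same denominators, chosen for being large, so their lying below 1 follows in part from that choice. Over all arrays the median ratio was 0.928 for rises and 0.883 for falls. Values chosen for being large are too large on average, so the reverse choice was made as well. Among the 951 transcripts called and changed at least 4-fold in Tkv wings, the median ratio of the control to the Tkv change was 1.014 (quartiles 0.890 and 1.137). Of these ratios 46.8% lay below 1. With each slide's control change over the Tkv change fitted on all 5 slides, the medians ran from 1.003 to 1.024, again with shared denominators. Of the 1084 transcripts chosen in controls, 43 had a Tkv change under 0.5 of the control change, including 2 of opposite sign. Leaving out arrays moved the first ratio between 0.890 and 0.921 and the second between 0.994 and 1.026.

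**Figure D4:**
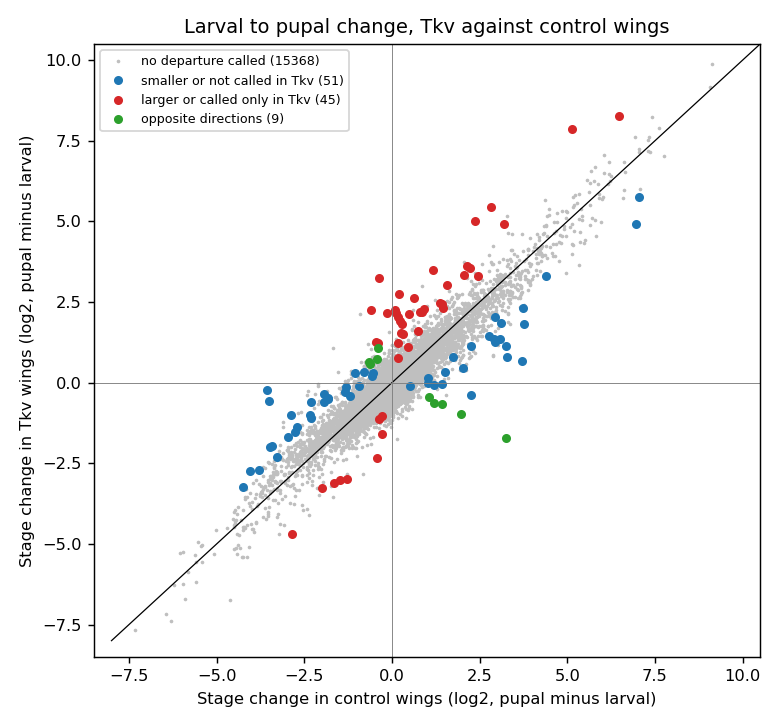
Stage change in Tkv wings (vertical) against that in control wings (horizontal), both log2 pupal minus larval, with 1 point per transcript and the line of equal change. Grey points have no called departure. Of the 105 coloured transcripts, 51 changed less or were not called in Tkv wings (blue), 45 changed more or were called only in Tkv wings (red) and 9 were called in opposite directions (green).

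The 105 departures were sorted by which genotypes were called and by the direction and relative size of the changes. Tkv wings changed less than controls, or were not called where controls were, for 51 transcripts. In 17 of these a control rise was smaller in Tkv wings (median 1.36, against 3.10 in controls, log2), and in another 17 a control fall was smaller (median -1.37, against -2.77). For 7 a control rise and for 10 a control fall was not called in Tkv wings. Tkv wings changed more, or were called alone, for 45 transcripts. In 21 a rise was larger in Tkv wings (median 3.03, against 1.45) and in 8 a fall was larger (median -3.00, against -1.39). Called in Tkv wings alone were 15 rises and 1 fall. In 9 transcripts both genotypes were called, in opposite directions.

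Among the departing transcripts the genotypes usually differed more in pupae than in larvae. That held for 78 of the 105 transcripts, among them 18 of the 21 larger rises, 14 of the 17 smaller falls and 8 of the 9 opposite changes. Departures are themselves called on how far the pupal and larval genotype differences diverge. The same count was not made over all transcripts, so 78 of 105 has no background share beside it. The smaller rises were divided, with 8 differing more in pupae and 9 in larvae. In that pattern the median larval level was 8.37 in Tkv wings and 6.97 in controls, and the median pupal levels were 10.89 and 11.36 (log2 intensity). In the pattern of smaller falls, the median larval levels were 11.25 and 11.01 and the pupal ones 10.21 and 8.80.

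The largest departures above 0 had different forms. FBtr0071612 rose in Tkv wings alone. It lay between 4.71 and 5.67 in larval and between 7.81 and 8.69 in pupal Tkv wings, without overlap, and stayed between 4.86 and 5.82 on all 10 control arrays. Its departure was 3.63 ± 0.25 (log2, SE, limma adjusted p = 8.15e-08). FBtr0082315 fell in controls alone, from 8.16 to 8.74 in larvae to 4.40 to 5.69 in pupae. In Tkv wings it was already near the bottom of the scale in larvae, at 5.10 ± 0.27 (mean ± SD, n = 5), and pupae lay at 4.89 ± 0.34. Its fitted departure was 3.36 ± 0.32 (limma adjusted p = 4.86e-06). All arrays of 3 of its 4 groups were dim, as they were for FBtr0071612 in 3 groups. In the remaining group of each transcript only replicate 1 was bright, at 8.74 for FBtr0082315 and 8.69 for FBtr0071612. The sizes and ranks of these departures are therefore of fitted intensities near the bottom of the scale.

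The largest departures below 0 included a change of direction. FBtr0071698 rose in controls by 3.24 ± 0.22 and changed by -1.71 ± 0.22 in Tkv wings (log2, SE, limma adjusted p = 3.31e-06). Its Tkv values were 7.01, 8.01, 8.10, 8.09 and 8.21 in larvae and 6.19, 6.12, 6.43, 5.95 and 6.20 in pupae. All pupal Tkv arrays lay below all larval ones, and the departure was -4.95 ± 0.32 (limma adjusted p = 3.98e-08). Larval arrays of both genotypes and pupal Tkv arrays of FBtr0071698 were all dim, while its pupal controls lay between 8.12 and 9.14. The Tkv fall thus lay within the dim range. The size and rank of this departure describe fitted intensities there. FBtr0081578 rose in both genotypes, from 13.20 ± 0.20 to 13.88 ± 0.11 in Tkv wings and from 8.97 ± 0.30 to 12.68 ± 0.30 in controls (mean ± SD, n = 5). The Tkv rise was 0.68 ± 0.15 and the departure -3.03 ± 0.22 (SE, limma adjusted p = 8.15e-08). The mean of larval Tkv wings lay above that of pupal controls, with overlapping arrays.

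Among transcripts bright on all 20 arrays, FBtr0070805 had the largest departure above 0. It lay at 10.75, 10.52, 10.87, 10.59 and 10.32 in larval and at 13.64, 13.11, 13.66, 13.56 and 12.91 in pupal Tkv wings. Control arrays of both stages lay between 9.85 and 10.55, so that pupal Tkv wings stood apart from the other 3 groups. The Tkv rise was 2.76 ± 0.15 (log2, SE, limma adjusted p = 1.16e-11), the control change 0.20 ± 0.15 and the departure 2.56 ± 0.21 (limma adjusted p = 6.81e-07). FBtr0084979 rose by 1.27 ± 0.22 in Tkv wings, beside -0.45 ± 0.22 in controls, a departure of 1.72 ± 0.31 (limma adjusted p = 0.00809). That call was lost when all arrays of replicate 1 or of replicate 5 were left out (limma adjusted p = 0.0649 and 0.0559).

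The 2 largest bright departures below 0 were a smaller rise and a larger fall. FBtr0087638 rose by 1.14 ± 0.20 in Tkv wings and by 3.26 ± 0.20 in controls, a departure of -2.12 ± 0.29 (log2, SE, limma adjusted p = 4.13e-04). Its larval Tkv values of 11.87 to 12.84 lay above the larval controls at 9.93 to 11.22, and its pupal Tkv values of 13.27 to 13.59 lay at or below the pupal controls at 13.59 to 14.28. FBtr0081781 lay at 12.25, 12.49, 12.47, 12.46 and 12.28 in larval and at 10.13, 10.11, 10.01, 10.17 and 9.94 in pupal Tkv wings. The change of -2.32 ± 0.11, a 5-fold fall, was even over the replicates (limma adjusted p = 1.68e-12). In controls the change was -0.42 ± 0.11, and the departure was -1.90 ± 0.16 (limma adjusted p = 6.81e-07).

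**Figure D5:**
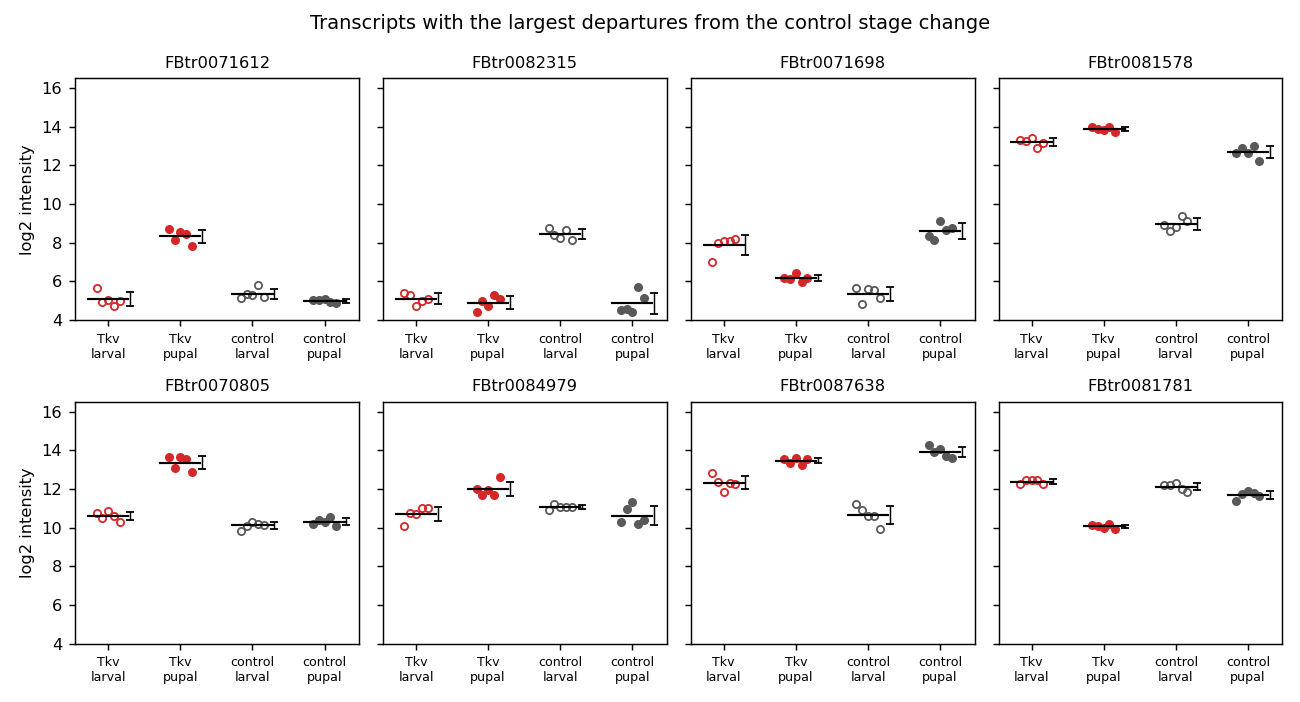
Log2 intensity on each array for the 8 transcripts with the largest departures, chosen among all transcripts (top row) and among those bright on all 20 arrays (bottom row). Points are arrays in order of replicate number, lines are means and bars are 1 SD (n = 5). Pupal Tkv wings stand apart from the other groups for FBtr0071612, FBtr0070805 and FBtr0081781, and larval controls for FBtr0082315 and FBtr0081578.

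The number of departures depended on the arrays more than the stage change did. It lay between 82 and 107 without any single array, except that it was 69 without larval control replicate 3 and 78 without larval Tkv replicate 5. Without all arrays of a replicate number it was 72, 57, 48, 57 and 62 for replicates 1 to 5, and with slide as a fixed block 124. Array position within a slide differed between groups, and with position and slide both in the model 66 departures were called, 57 of them among the 105.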

How the data were processed

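Total RNA of dissected wings was labelled with Cy3 and measured on NimbleGen arrays, 4 arrays to a slide, per the file names, with the labelling taken from the labels' protocols. The authors deposited an intensity per transcript and array, summarised over 3 to 5 probe pairs, per the file headers. RMA is named in the submitters' processing notes, with its settings unstated there. These deposited intensities ranged from 12.2 to 62182. A deposited series table holds their log2 values (equal to within 5e-09) and served as an alternative.

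Values were put on log2. Array medians differed by up to 0.40, so all 20 arrays were quantile-normalized together. Tests used limma 3.58.1 in R 4.3.3 on all 20 arrays, with a mean for each of 4 groups, leaving 16 residual degrees of freedom, eBayes, two-sided, with Benjamini-Hochberg adjustment over all 15473 transcripts and a threshold of 0.05. Intervals were 95% intervals of the moderated fit. No transcript was filtered. Precision is limited by how many arrays there were. The code was tested on simulated data. Figures used matplotlib 3.10.9 in Python 3.11.15.

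Groups and replicate numbers came from titles. The slide followed the replicate number, by the file names. The main model had no slide block, because the labels' protocols state no test. Deviations of same-numbered arrays from their group means correlated at -0.186 to 0.287, and limma's estimate of the correlation within slides was 0.0995. That range does not show that slides can be ignored. With slide as a fixed or random block 124 or 141 departures were called, in place of 105.

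Only 17 of 15473 IDs had a single symbol (44 occurred among the synonyms), too few for the rule that names genes by symbol. By the rule for that case, the 2 largest rises and 2 largest falls with the same sign on all 5 slides were given by ID, for both contrasts, among all transcripts and among those bright on all 20 arrays, and all 17 symbols were described. Of the gene lists, LanA and alpha-Spec were single matches in their lists. Members and lists were chosen with earlier results of these data known.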

Additional observations from a re-analysis of the deposited data

Results flagged for a closer look

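In 136 groups of 5 arrays examined, 11 held a value that stood apart from its group. By chance alone about 1 in 20 groups would. In larval Tkv wings these were the log2 intensities of CG31178 (5.01, replicate 2), alpha-Spec (12.44, replicate 3), mio (10.02, replicate 1) and FBtr0071698 (7.01, replicate 1). In pupal Tkv wings they were FBtr0081252 (14.69, replicate 4), Fatp1 (10.43, replicate 1) and the deposited array median of replicate 2 (9.19). In larval controls they were Dyrk3 (13.05, replicate 2) and kis (12.99, replicate 3), and in pupal controls FBtr0086982 (7.54) and NaPi-III (8.34), both on replicate 1.

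The stage change differed between Tkv and control wings by the limma interaction test for 105 transcripts. Among those given by ID, the Tkv minus control stage change was 3.63 for FBtr0071612, 3.36 for FBtr0082315, 2.56 for FBtr0070805 and 1.72 for FBtr0084979 (log2). It was -4.95 for FBtr0071698, -3.03 for FBtr0081578, -2.12 for FBtr0087638 and -1.90 for FBtr0081781.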

How the results depend on the processing

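The stage change in Tkv wings was called for 5026 to 6216 transcripts when arrays or replicate numbers were left out, and for 2513 when at least 2-fold was required (2717 in controls). Departures numbered 48 to 107 with arrays or replicate numbers left out, 66 with array position and the replicate block, 51 at an adjusted p under 0.01, and 124 or 141 with the replicate block as a fixed or random effect. The replicate block gave 6461 calls for the stage change in Tkv wings. Intervals within 1.5-fold were found for 4871 transcripts in place of 10836 within 2-fold. The control to Tkv ratio was 0.994 to 1.026 with arrays left out. Counts of departing transcripts by pattern, and of changes of at least 4-fold, were chosen for refitting after seeing the data. Those with a smaller change in Tkv wings numbered 29 with array position and the replicate block and 17 to 53 with arrays left out, and those with a larger change 29 and 24 to 47. Called changes of transcripts given by ID or symbol kept their sign in all refits run, while uncalled departures near 0 of some symbols did not. Of the 6253 transcripts dim on all 10 Tkv arrays, 51.3% had a departure interval within 2-fold, against 92.6% of the bright ones. Fewer dim transcripts could thus be shown to change alike. Whether signal over background plays a part was not tested.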

Other observations

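Of the 7328 transcripts bright on all 20 arrays, 15 had an SD of at least 1 on the log2 scale between the 5 pupal Tkv arrays, against 0 between the larval Tkv arrays, 2 between the larval control and 5 between the pupal control arrays. Only 1 of the 15 was also among the 5 of pupal controls. In pupal Tkv wings, replicate 4 was the lowest array for 12 of the 15, and replicate 2 the highest for 8. In pupal controls the lowest array for the same 15 was replicate 2 in 10 cases. Of the 15, 6 passed the limma test for the stage change in Tkv wings. This description was chosen after the data were seen and was not tested.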
